A study of Mus musculus with 9 samples.

Results

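The NDRG genes of cultured mouse natural killer (NK) cells are described here across 3 treatments. The family has 4 members in the mouse, Ndrg1, Ndrg2, Ndrg3 and Ndrg4, and each was found by its symbol, so that 4 of the 16876 genes in the count table are described. NK cells are lymphocytes that kill infected and tumour cells, and TGF-β is a cytokine that restrains them. The cells were grown from femoral marrow of C57BL/6 mice for 4 days in a medium that held 30 ng/mL SCF, 50 ng/mL IL-15, 10 ng/mL Flt3L and 1 ng/mL IL-7. The medium of the further week held 20 ng/mL IL-2 beside 50 ng/mL IL-15. SIS3_TGFb cells received SIS3, an inhibitor of the TGF-β signal carrier SMAD3, at 10 µM for 3 h, followed by 3 h of TGF-β1 (5 ng/mL). TGFb cells were given the same TGF-β1 (5 ng/mL, 3 h) and no SIS3. Ctrl cells received neither. Each group has 3 libraries of poly-A RNA.

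The titles of the SIS3_TGFb libraries name SIS3 alone, whereas TGF-β1 also stands in their treatment text and in the series design. SIS3 was never given without TGF-β1, so an effect of SIS3 by itself and an effect on the TGF-β response cannot be told apart. Whether Ctrl and TGFb cells received the solvent of SIS3 is not given in the sources at hand. The labels do not say whether the libraries of a group come from separate mice or cultures, so the spread behind each p-value is that of the libraries and may be technical.

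NDRG proteins (N-myc downstream regulated gene) share the fold of alpha/beta hydrolases but are not known to catalyse a hydrolase reaction. NDRG1 takes its family's name from its repression by MYCN, and MYC also represses it. In other cells it is induced by hypoxia, by stress of the endoplasmic reticulum and by iron chelators, and its protein is phosphorylated by the kinases SGK1 and GSK3. In mouse T cells NDRG1 is an anergy factor induced with EGR2, and mice without it have mast cells that mature poorly. NDRG2 is best known from astrocytes and as a tumour suppressor, NDRG3 as a lactate-binding protein of the hypoxia response, and NDRG4 from heart and brain.

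Ndrg1 and Ndrg4 were chosen on their measured changes in these same libraries, and the family was picked on them. Their levels and fold changes are therefore given as a description, with no test. Ndrg2 and Ndrg3 came in by family membership, and their adjusted p-values come from a fit over all 12212 genes that had enough reads. All 4 members were among those genes. The fit was edgeR's quasi-likelihood test with Benjamini-Hochberg adjustment, with a threshold of 0.05 on the adjusted p for any gene described as rising or falling.

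The genes lie on 4 chromosomes. In the GENCODE M21 models of GRCm38, Ndrg1 spans chr15:66929318-66969640 on the minus strand, Ndrg2 chr14:51905271-51914158 on the minus strand, Ndrg3 chr2:156927345-156992056 on the minus strand and Ndrg4 chr8:95676980-95715119 on the plus strand. For each gene the protein-coding transcript with the longest coding sequence was taken. The transcripts taken hold 394 codons in Ndrg1, 371 in Ndrg2, 388 in Ndrg3 and 404 in Ndrg4, over 16 or 17 exons. Between members the aligned coding bases were 67.4% to 70.9% identical and the residues they code for 56.2% to 64.5% identical. No run of 50 transcript bases was shared between members, the longest shared run being 32 coding bases between Ndrg2 and Ndrg4. Ndrg1 is set apart by a repeat near its 3′ coding end, in codons 338 to 367, which is the stretch where SGK1 phosphorylates human NDRG1. It has 3 copies of 30 bases in 1 exon, shown here on the coding strand because no other member has it, with the 6 positions that differ between the copies in capitals.
Ndrg1 copy 1, chr15:66931011-66931040: gagggCAcccgTagccgctcCcaTaccagC
Ndrg1 copy 2, chr15:66930981-66931010: gagggCCcccgAagccgctcGcaCaccagT
Ndrg1 copy 3, chr15:66930951-66930980: gagggGTcccgTagccgctcCcaTaccagT
The best pair of neighbouring 30-base units was 83.3% identical in Ndrg1, against 56.7% in Ndrg2 and 50% in Ndrg3 and in Ndrg4.

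RefSeq promoter windows of GRCm38.p6 were matched for Ndrg2 (3 starts), Ndrg3 (2 starts) and Ndrg4 (4 starts). The most upstream windows of Ndrg4, the member with the widest range of levels on the log2 scale, and of Ndrg3, with the narrowest, are shown. Each holds the 250 bases before the start, contains no base of an annotated exon of its gene, and is written on the gene's strand. Capitals mark CAGAC, the core of the SMAD binding element, which stands here in its reverse complement GTCTG.
Ndrg4, chr8:95676724-95676973, plus strand: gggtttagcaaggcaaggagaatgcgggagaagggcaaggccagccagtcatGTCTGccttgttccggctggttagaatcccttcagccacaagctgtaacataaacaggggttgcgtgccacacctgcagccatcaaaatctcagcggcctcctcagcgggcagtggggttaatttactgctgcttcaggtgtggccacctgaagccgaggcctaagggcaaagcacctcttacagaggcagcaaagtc
Ndrg3, chr2:156992112-156992361, minus strand: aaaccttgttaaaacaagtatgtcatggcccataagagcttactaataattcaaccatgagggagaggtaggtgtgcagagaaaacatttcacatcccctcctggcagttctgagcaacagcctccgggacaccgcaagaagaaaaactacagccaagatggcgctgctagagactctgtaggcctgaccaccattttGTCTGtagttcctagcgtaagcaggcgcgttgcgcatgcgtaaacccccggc
Read on both strands, CAGAC was found once in each of these windows, and 42.2% of all 32851 promoter windows of that length hold it. Over all windows, CAGAC stood in 1 of the 3 of Ndrg2, in both of Ndrg3 and in 2 of the 4 of Ndrg4. The E-box CACGTG, the letters that MYC and its partner MAX bind, stood in 1 window of Ndrg4 and in none of Ndrg2 or Ndrg3, beside 6.02% of all windows. ACGTG, the core of the hypoxia response element, was found only inside that E-box, beside 16.6% of all windows. TATAAA, the TATA box, stood in 1 window of Ndrg2 and 1 of Ndrg4, beside 12.4% of all windows. These are matches of letters and say nothing of binding.

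Library totals ran from 15714973 to 16718673 expected counts. The summed level of 10 NK cell markers was 13020 to 13290 CPM (counts scaled to a common library size with TMM factors) in SIS3_TGFb, 11450 to 12630 in TGFb and 15700 to 16680 in Ctrl. Most of it was Gzmb (5376 to 8689 CPM over all libraries) and Prf1 (4511 to 6423 CPM), so the sum does not measure the number of NK cells. TGFb replicate 3 and SIS3_TGFb replicate 3 differed most from their own group (chi-square per gene 4.22 to 5.23, against 1.62 to 3.12 between other libraries of a group), and values without them are given where they bear on a member. Counting error alone sets a floor on precision, highest for Ndrg4 in Ctrl with 3 to 19 expected counts per library and for Ndrg2 with 39 to 80.

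Ndrg1 was lowest in TGFb cells and highest in SIS3_TGFb cells. It had 105.9, 105.4 and 91.2 CPM in SIS3_TGFb, against 25.1, 25.5 and 27.6 CPM in TGFb, and 62.6, 60.8 and 60.0 CPM in Ctrl. The 3 groups did not overlap. The means were 100.8 ± 8.33 CPM in SIS3_TGFb, 26.1 ± 1.31 CPM in TGFb and 61.1 ± 1.36 CPM in Ctrl (SD, n = 3 each). These rest on 5177 expected counts in SIS3_TGFb, 1240 in TGFb and 2965 in Ctrl.

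The log2 fold change of Ndrg1 was -1.23 (SE 0.0651) in TGFb versus Ctrl, so TGFb cells held 42.6% of the Ctrl level. Of the 12212 genes, Ndrg1 ranked 68 from the lowest in that comparison. In SIS3_TGFb versus TGFb it was 1.95 (SE 0.0625), a ratio of 3.87, which ranked 36 from the highest. In SIS3_TGFb versus Ctrl it was 0.72 (SE 0.0562), a ratio of 1.65, so the SIS3_TGFb level stood above the untreated level as well. The TGFb libraries enter both of the first 2 comparisons, so those values are not independent of each other. Without TGFb replicate 3 the changes were -1.27 against Ctrl and 1.99 for SIS3_TGFb versus TGFb, and without SIS3_TGFb replicate 3, the lowest Ndrg1 library of its group, SIS3_TGFb versus TGFb gave 2.02.

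Models on the opposite strand, Gm17035 and Gm2895, overlap 6.35% and 2.08% of the Ndrg1 exons, and 12.3% of the 50-base runs in the Ndrg1 transcripts also occur in them. The table has no row for either. Whether reads were counted by strand is not stated in the labels, and without strand reads from Ndrg1 and from these models cannot be told apart.

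Ndrg4 was near the limit of counting in Ctrl cells and plainly measured in both groups that had TGF-β1. It had 17.0, 17.8 and 15.1 CPM in SIS3_TGFb, against 13.5, 14.8 and 16.9 CPM in TGFb, and 0.189, 1.17 and 0.791 CPM in Ctrl. SIS3_TGFb and TGFb overlapped through TGFb replicate 3 alone, and both stood above every Ctrl library. The expected counts were 288, 307 and 260 in SIS3_TGFb, 220, 242 and 254 in TGFb, and 3, 19 and 13 in Ctrl. The counting intervals in Ctrl (exact Poisson, 95%, counting error only) were 0.619 to 8.77 for replicate 1, 11.4 to 29.7 for replicate 2 and 6.92 to 22.2 for replicate 3.

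The log2 fold change of Ndrg4 was 4.37 (SE 0.24) in TGFb versus Ctrl, a ratio of means of 21.0 and rank 12 from the highest of 12212 genes. In SIS3_TGFb versus Ctrl it was 4.51 (SE 0.235), a ratio of 23.2 and rank 16 from the highest. In SIS3_TGFb versus TGFb it was 0.145 (SE 0.14), a ratio of 1.10, which is smaller than the spread between libraries. That value was 0.233 without TGFb replicate 3 and 0.211 without SIS3_TGFb replicate 3. It was 0.073 without TGFb replicate 1 and 0.091 without SIS3_TGFb replicate 2. The size of the change against Ctrl leaned on the Ctrl library left in. TGFb versus Ctrl gave 3.93 without Ctrl replicate 1 and 4.90 without Ctrl replicate 2, beside 4.28 without TGFb replicate 3.

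**Figure D1:**
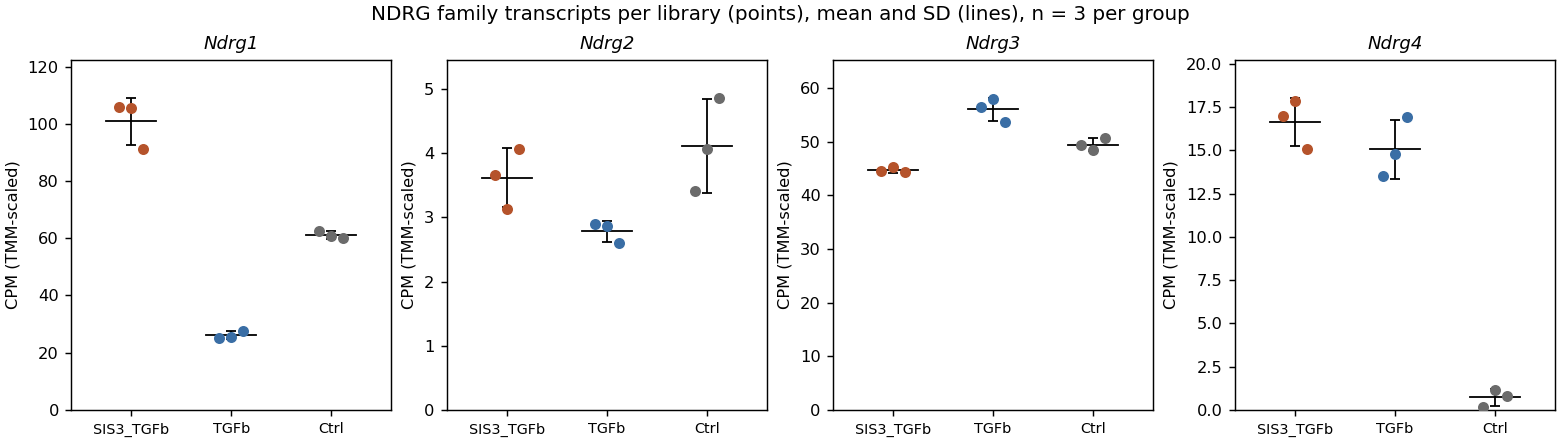
Level of each NDRG gene in CPM (vertical axis, from 0) in every library (points) of SIS3_TGFb, TGFb and Ctrl, with the group mean (horizontal line) and SD (bar), n = 3 each. Ndrg1 averaged 100.8 CPM in SIS3_TGFb, 26.1 CPM in TGFb and 61.1 CPM in Ctrl, while Ndrg4 averaged 16.6 CPM in SIS3_TGFb and 15.1 CPM in TGFb, against 0.717 CPM in Ctrl.

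Ndrg3 changed little and in the opposite direction to Ndrg1. It had 44.5, 45.3 and 44.4 CPM in SIS3_TGFb, against 56.5, 58.0 and 53.7 CPM in TGFb, and 49.3, 48.4 and 50.8 CPM in Ctrl. The 3 groups did not overlap, TGFb being highest and SIS3_TGFb lowest. In TGFb versus Ctrl Ndrg3 rose (log2 fold change 0.18, SE 0.0465, edgeR adjusted p = 0.00659), in a comparison where 34.3% of all genes tested changed (17.9% rose and 16.4% fell). In SIS3_TGFb versus TGFb it fell (log2 fold change -0.33, SE 0.0468, edgeR adjusted p = 4.78e-05), where 41.8% of all genes changed (21.2% rose and 20.6% fell). In SIS3_TGFb versus Ctrl it fell (log2 fold change -0.15, SE 0.0472, edgeR adjusted p = 0.0158), where 53.9% of all genes changed (29% rose and 24.9% fell).

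The change of Ndrg3 in SIS3_TGFb versus Ctrl no longer passed without scaling factors between libraries (log2 fold change -0.09, edgeR adjusted p = 0.173) or without Ctrl replicate 3 (-0.13, edgeR adjusted p = 0.0612). Without TGFb replicate 3 the changes were 0.21 in TGFb versus Ctrl (edgeR adjusted p = 0.0039) and -0.36 in SIS3_TGFb versus TGFb (edgeR adjusted p = 3.05e-05). Of the 50-base runs in the Ndrg3 transcripts, 4.03% also occur in other genes, none of them a member, so a small part of its count could have been split.

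Ndrg2 was the member with the fewest reads apart from Ndrg4 in Ctrl. It had 3.66, 3.14 and 4.06 CPM in SIS3_TGFb, against 2.89, 2.87 and 2.596 CPM in TGFb, and 3.41, 4.07 and 4.87 CPM in Ctrl. The TGFb libraries were below all others, and SIS3_TGFb and Ctrl overlapped. Ndrg2 fell in TGFb versus Ctrl (log2 fold change -0.56, SE 0.183, edgeR adjusted p = 0.0257). In SIS3_TGFb versus TGFb the log2 fold change was 0.38 (SE 0.184, edgeR adjusted p = 0.117), and in SIS3_TGFb versus Ctrl it was -0.185 (SE 0.174, edgeR adjusted p = 0.392), neither past the threshold. Ndrg2 and Ndrg3 were thus both called in TGFb versus Ctrl, where 34.3% of all genes were, and a pair of genes is too few to read against that share.

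The fall of Ndrg2 was a borderline call. DESeq2 gave an adjusted p of 0.0743, and edgeR gave 0.0509 without TGFb replicate 1, 0.0541 without TGFb replicate 2, 0.0619 without TGFb replicate 3, 0.0545 without Ctrl replicate 2 and 0.131 without Ctrl replicate 3.

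**Figure D2:**
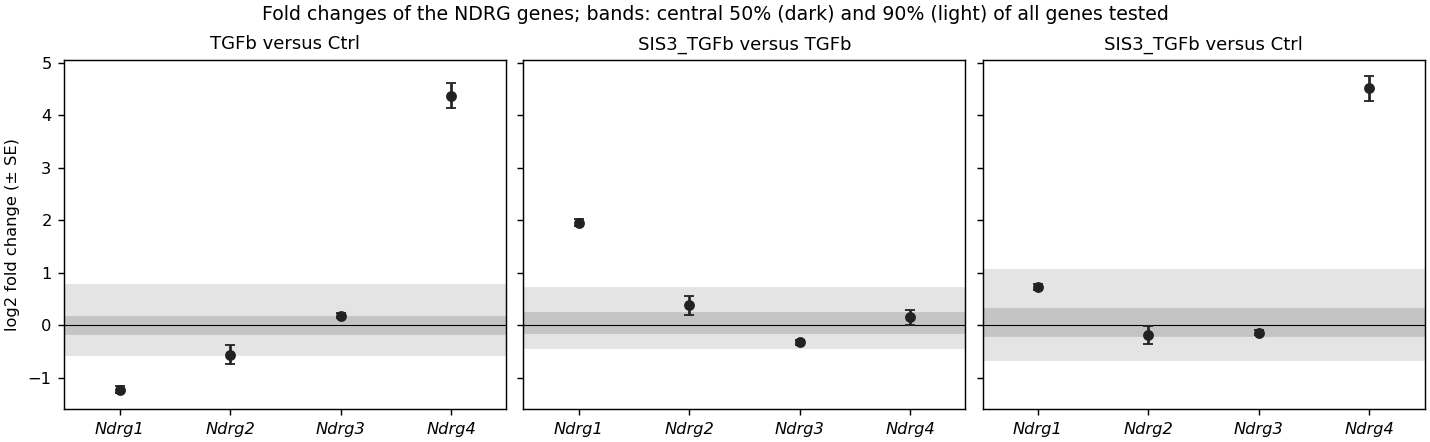
Log2 fold change (vertical axis) of each NDRG gene in TGFb versus Ctrl, SIS3_TGFb versus TGFb and SIS3_TGFb versus Ctrl, with its SE as a bar; the bands hold the central 50% (dark) and 90% (light) of all genes tested, the light band running from -0.563 to 0.766 in TGFb versus Ctrl. Ndrg1 at -1.23 and Ndrg4 at 4.37 lie outside that band. Ndrg2 at -0.561 lies at its lower edge, and Ndrg3 at 0.18 lies inside it.

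Levels of different members can be set side by side only per length. The length used was that of the transcript with the longest coding sequence, and which transcripts were expressed was not tested. Per kilobase, Ndrg1 stood at 34.9 ± 2.88 CPM in SIS3_TGFb, 9.02 ± 0.455 in TGFb and 21.2 ± 0.47 in Ctrl (SD, n = 3 each). Ndrg3 stood at 17.1 ± 0.19 CPM per kb in SIS3_TGFb, 21.5 ± 0.846 in TGFb and 18.9 ± 0.458 in Ctrl. Ndrg4 stood at 5.37 ± 0.454 CPM per kb in SIS3_TGFb, 4.86 ± 0.549 in TGFb and 0.231 ± 0.16 in Ctrl. Ndrg2 stood at 1.73 ± 0.221 CPM per kb in SIS3_TGFb, 1.33 ± 0.0784 in TGFb and 1.96 ± 0.349 in Ctrl.

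The order of the levels thus differed between groups. It was Ndrg1, Ndrg3, Ndrg4, Ndrg2 in SIS3_TGFb, against Ndrg3, Ndrg1, Ndrg4, Ndrg2 in TGFb and Ndrg1, Ndrg3, Ndrg2, Ndrg4 in Ctrl. No neighbours in these orders overlapped between libraries, and the orders were the same per kb of all exons and per kb of coding sequence. Ndrg1 and Ndrg3 were close in Ctrl, where the lowest Ndrg1 library had 20.8 CPM per kb and the highest Ndrg3 library 19.4.

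Of the family's summed transcripts per length, Ndrg1 made up 59.0 ± 1.70% in SIS3_TGFb, 24.6 ± 1.18% in TGFb and 50.0 ± 1.39% in Ctrl. Ndrg3 made up 29.0 ± 1.46% in SIS3_TGFb, 58.5 ± 2.31% in TGFb and 44.8 ± 0.60% in Ctrl. Ndrg4 made up 9.07 ± 0.319% in SIS3_TGFb, 13.3 ± 1.41% in TGFb and 0.548 ± 0.381% in Ctrl. The shares depended on the length used, which the SD does not include. In TGFb, Ndrg3 made up 46% and Ndrg4 21.2% per kb of all exons. Per kb of coding sequence they made up 56.6% and 14.6% there. The family's sum was 59.1 ± 3.25 CPM per kb in SIS3_TGFb, 36.7 ± 0.564 in TGFb and 42.3 ± 0.455 in Ctrl. The 3 groups' sums did not overlap, TGFb being lowest.

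**Figure D3:**
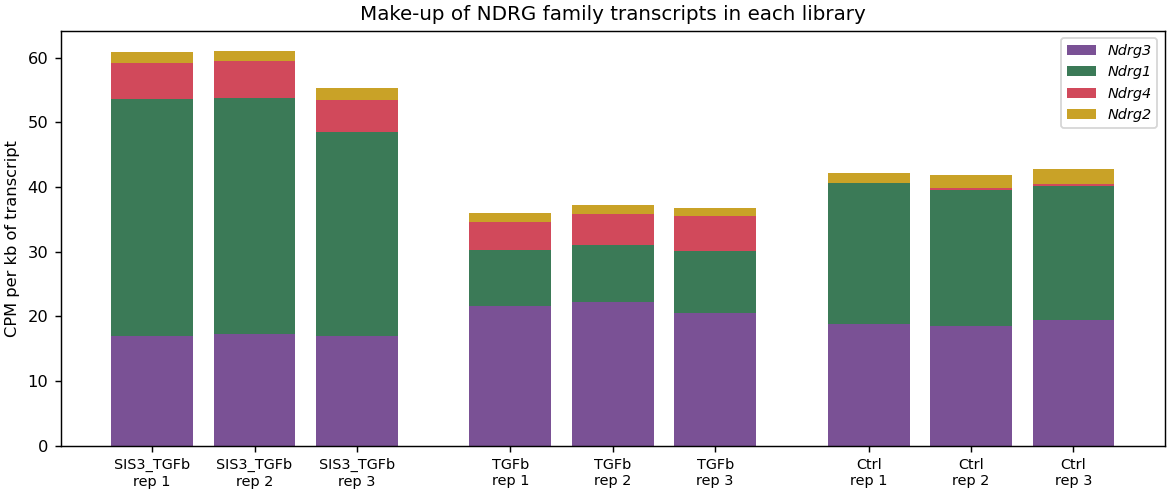
Stacked levels of the NDRG genes in each library of SIS3_TGFb, TGFb and Ctrl. The vertical axis, from 0, is CPM per kb of the transcript with the longest coding sequence. Ndrg1 is the tallest part in SIS3_TGFb, Ndrg3 is the tallest in TGFb, both are close in Ctrl, and the Ndrg4 part is visible in all libraries with TGF-β1 but hardly in Ctrl.

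The genes nearest to each member in profile were found by the root mean square (RMS) difference of log2 CPM, each gene centred on its own mean, over the 9 libraries and 11567 named genes. Nearest to Ndrg1 were Otub2, a deubiquitinase (RMS 0.191), Napb, a SNAP protein of vesicle fusion (0.23), Bcat1, the cytosolic branched-chain aminotransferase (0.236), Galnt18, a GalNAc transferase family gene (0.237), and Herpud1, a membrane protein of endoplasmic reticulum degradation (0.287). The median over all genes was 0.826. Herpud1 averaged 111.7 CPM in SIS3_TGFb, 30.4 CPM in TGFb and 45.9 CPM in Ctrl, and Bcat1 averaged 54.9 CPM in SIS3_TGFb, 16.05 CPM in TGFb and 26.8 CPM in Ctrl. All 5 were lowest in TGFb and highest in SIS3_TGFb, which the choice by profile fixes.

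Nearest to Ndrg4 were Clmn, which encodes calmin (RMS 0.42), Vipr2, a receptor for vasoactive intestinal peptide (0.433), Mest, an imprinted gene of the alpha/beta hydrolase fold (0.565), Scn3b, a sodium channel beta subunit (0.598), and Gpr155 (0.635). The median over all genes was 2.17. Vipr2 averaged 27.9 CPM in SIS3_TGFb, 27.3 CPM in TGFb and 1.54 CPM in Ctrl. Scn3b averaged 9.27 CPM in SIS3_TGFb, 7.76 CPM in TGFb and 0.124 CPM in Ctrl. Clmn averaged 4.71 CPM in SIS3_TGFb, 2.48 CPM in TGFb and 0.102 CPM in Ctrl. Mest averaged 36.4 CPM in SIS3_TGFb, 18.1 CPM in TGFb and 1.19 CPM in Ctrl. Their log2 fold changes in SIS3_TGFb versus TGFb were 0.93 and 1.01, beside 0.145 for Ndrg4. In Ctrl replicate 1, where Ndrg4 was lowest, Clmn had 0 expected counts, beside 3 and 2 in the other Ctrl libraries. The choice by profile favours such a match, and Scn3b was level there (1.98, 1.96 and 1.98 expected counts in Ctrl).

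Nearest to Ndrg3 were Tardbp, an RNA-binding protein gene (RMS 0.0261), Msh6 of DNA mismatch repair (0.031), Adam10, a membrane protease (0.0345), Usp12, a deubiquitinase (0.0361), and Cnot1, the scaffold of the CCR4-NOT deadenylase (0.0379), with a median over all genes of 0.225. Nearest to Ndrg2 were Ccnb2, a mitotic cyclin (0.0911), Arhgap19, a GTPase-activating protein (0.0921), Ndufaf4, an assembly factor of respiratory complex I (0.103), Espl1, which encodes separase (0.106), and Rab11fip1, a Rab11 effector (0.109), with a median of 0.318. Because Ndrg2 and Ndrg3 varied little, a small RMS difference is easier to reach for them.

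**Figure D4:**
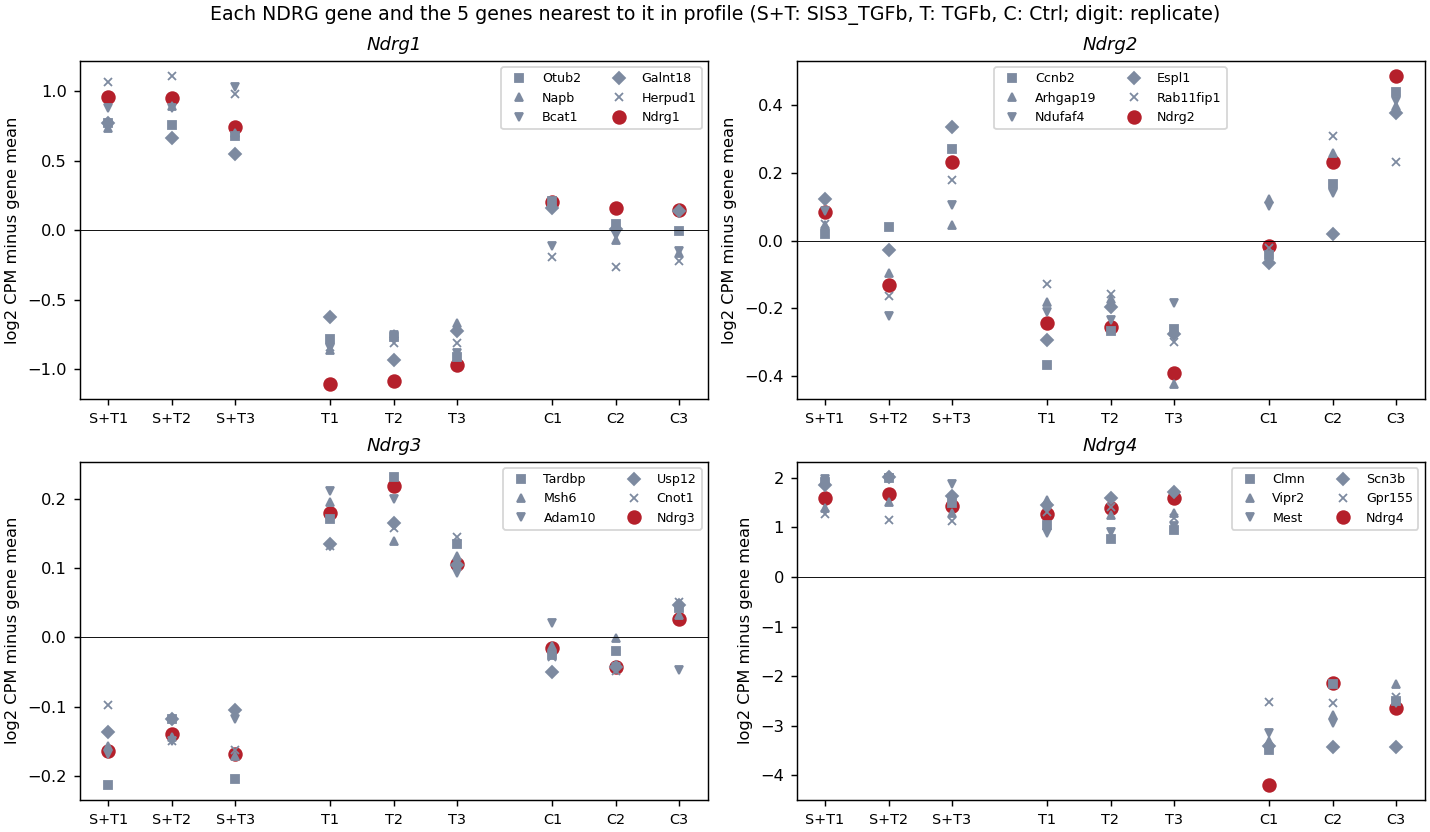
Log2 CPM minus the gene's mean (vertical axis) in each library (horizontal axis; S+T for SIS3_TGFb, T for TGFb, C for Ctrl) for each NDRG gene (red circles) and the 5 genes nearest to it (grey symbols). The vertical ranges differ between panels, widest for Ndrg4, whose lowest point is Ctrl replicate 1, and narrowest for Ndrg3.

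The known repressors of NDRG1 were both lower after treatment. Myc had 8.57, 9.94 and 10.2 CPM in SIS3_TGFb, against 29.0, 30.3 and 31.75 CPM in TGFb, and 60.2, 59.0 and 58.8 CPM in Ctrl. Mycn averaged 2.78 ± 0.115 CPM in SIS3_TGFb, 5.69 ± 0.997 CPM in TGFb and 14.96 ± 1.29 CPM in Ctrl (SD, n = 3 each). Both genes fell in every comparison, Myc by 0.97 (SE 0.0576, edgeR adjusted p = 1.79e-09) and Mycn by 1.39 (SE 0.127, edgeR adjusted p = 2.92e-07) on the log2 scale in TGFb versus Ctrl. In SIS3_TGFb versus TGFb, Myc fell by 1.67 (SE 0.0721, edgeR adjusted p = 1.1e-10) and Mycn fell by 1.03 (SE 0.158, edgeR adjusted p = 9.03e-05). Ndrg1 was thus lower in the first of these comparisons and higher in the second, while Myc and Mycn were lower in both.

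Mycl, another MYC gene, moved the other way. It averaged 21.1 ± 2.39 CPM in SIS3_TGFb, 15.5 ± 1.28 CPM in TGFb and 1.61 ± 0.0951 CPM in Ctrl, and it rose in TGFb versus Ctrl (log2 fold change 3.26, SE 0.142, edgeR adjusted p = 4.31e-11). Of 12 tested genes of the MYC, MAX and MXD network, 4 rose and 4 fell in TGFb versus Ctrl (median log2 fold change -0.10), 4 rose and 5 fell in SIS3_TGFb versus TGFb (-0.01), and 5 rose and 4 fell in SIS3_TGFb versus Ctrl (0.16). The medians over all genes tested were -0.004, 0.012 and 0.020 in the same order of comparisons. The shares of all genes that rose and fell, against which this and each later list is to be read, were 17.9% and 16.4% in TGFb versus Ctrl, 21.2% and 20.6% in SIS3_TGFb versus TGFb, and 29% and 24.9% in SIS3_TGFb versus Ctrl. Max, the shared partner, rose in TGFb versus Ctrl (0.39, SE 0.0352, edgeR adjusted p = 2.89e-07), and Mxi1, which competes with MYC for MAX, rose in SIS3_TGFb versus TGFb (0.58, SE 0.0608, edgeR adjusted p = 2.07e-06).

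Atf4, a factor of the integrated stress response, had 522.2, 497.4 and 491.7 CPM in SIS3_TGFb, against 250.9, 238.4 and 254.2 CPM in TGFb, and 322.7, 331.0 and 315.0 CPM in Ctrl. Ddit3, which encodes CHOP, had 131.5, 132.6 and 117.3 CPM in SIS3_TGFb, against 21.0, 20.3 and 16.8 CPM in TGFb, and 25.6, 25.3 and 23.3 CPM in Ctrl. For both genes, the 3 groups did not overlap, and TGFb was lowest and SIS3_TGFb highest, the order seen for Ndrg1. Both fell in TGFb versus Ctrl, Atf4 by 0.38 (SE 0.0384, edgeR adjusted p = 8.83e-07) and Ddit3 by 0.35 (SE 0.0847, edgeR adjusted p = 0.00435) on the log2 scale. Both rose in SIS3_TGFb versus TGFb, with log2 fold changes of 1.02 for Atf4 (SE 0.0382, edgeR adjusted p = 2.22e-11) and 2.71 for Ddit3 (SE 0.0722, edgeR adjusted p = 9.18e-13).

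Of 19 tested ATF4 and CHOP stress genes, 16 rose and 2 fell in SIS3_TGFb versus TGFb (median log2 fold change 1.00), and 16 rose and 0 fell in SIS3_TGFb versus Ctrl (1.20), with 3 not past the threshold there. Over all genes tested, 21.2% rose and 20.6% fell in SIS3_TGFb versus TGFb, and 29% rose and 24.9% fell in SIS3_TGFb versus Ctrl. In TGFb versus Ctrl, 6 of the list rose and 6 fell (-0.09), beside 17.9% rising and 16.4% falling over all genes. The amino acid transporter genes Slc7a5 (1.27, SE 0.037, edgeR adjusted p = 1.79e-12) and Slc3a2 (1.19, SE 0.0375, edgeR adjusted p = 4.44e-12) rose in SIS3_TGFb versus TGFb. Trib3, a pseudokinase that restrains ATF4 and CHOP, fell in that comparison (-1.44, SE 0.0465, edgeR adjusted p = 4.63e-12) and rose in TGFb versus Ctrl (3.37, SE 0.057, edgeR adjusted p = 9.79e-16).

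Hif1a, which encodes the oxygen-regulated factor that induces NDRG1 in hypoxia, had 392.3, 402.3 and 380.7 CPM in SIS3_TGFb, against 197.1, 190.0 and 177.7 CPM in TGFb, and 256.0, 259.5 and 260.0 CPM in Ctrl. It fell in TGFb versus Ctrl (log2 fold change -0.46, SE 0.0403, edgeR adjusted p = 1.96e-07) and rose in SIS3_TGFb versus TGFb (1.06, SE 0.04, edgeR adjusted p = 2.57e-11). Its mRNA was therefore in the same order of groups as Ndrg1. Of 25 tested hypoxia-inducible factors and hypoxia targets, 5 rose and 9 fell in TGFb versus Ctrl (median log2 fold change -0.07), 6 rose and 11 fell in SIS3_TGFb versus TGFb (-0.04), and 6 rose and 12 fell in SIS3_TGFb versus Ctrl (-0.08). Bnip3, a mitophagy gene induced by HIF-1, fell in SIS3_TGFb versus TGFb (-0.62, SE 0.0717, edgeR adjusted p = 5.71e-06), whereas Ddit4, a hypoxia and stress gene that restrains mTOR, rose in that comparison (0.63, SE 0.0481, edgeR adjusted p = 7.4e-08) and in TGFb versus Ctrl (0.87, SE 0.0522, edgeR adjusted p = 1.88e-09).

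Sgk1, the kinase gene whose product phosphorylates the NDRG1 repeat shown above, varied between libraries of a group. It had 51.5, 48.5 and 77.6 CPM in SIS3_TGFb, against 62.9, 68.0 and 41.1 CPM in TGFb, and 18.0, 25.6 and 26.9 CPM in Ctrl. It rose in TGFb versus Ctrl (log2 fold change 1.29, SE 0.199, edgeR adjusted p = 9.07e-05) and in SIS3_TGFb versus Ctrl (1.33, SE 0.198, edgeR adjusted p = 3.43e-05), and SIS3_TGFb and TGFb overlapped (0.04, SE 0.178, edgeR adjusted p = 0.871). These are levels of mRNA, and phosphorylation was not measured. Of 14 tested NDRG kinases and their activators, 3 rose and 2 fell in TGFb versus Ctrl (median log2 fold change 0.04), 3 rose and 5 fell in SIS3_TGFb versus TGFb (-0.02), and 5 rose and 6 fell in SIS3_TGFb versus Ctrl (0.06).

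**Figure D5:**
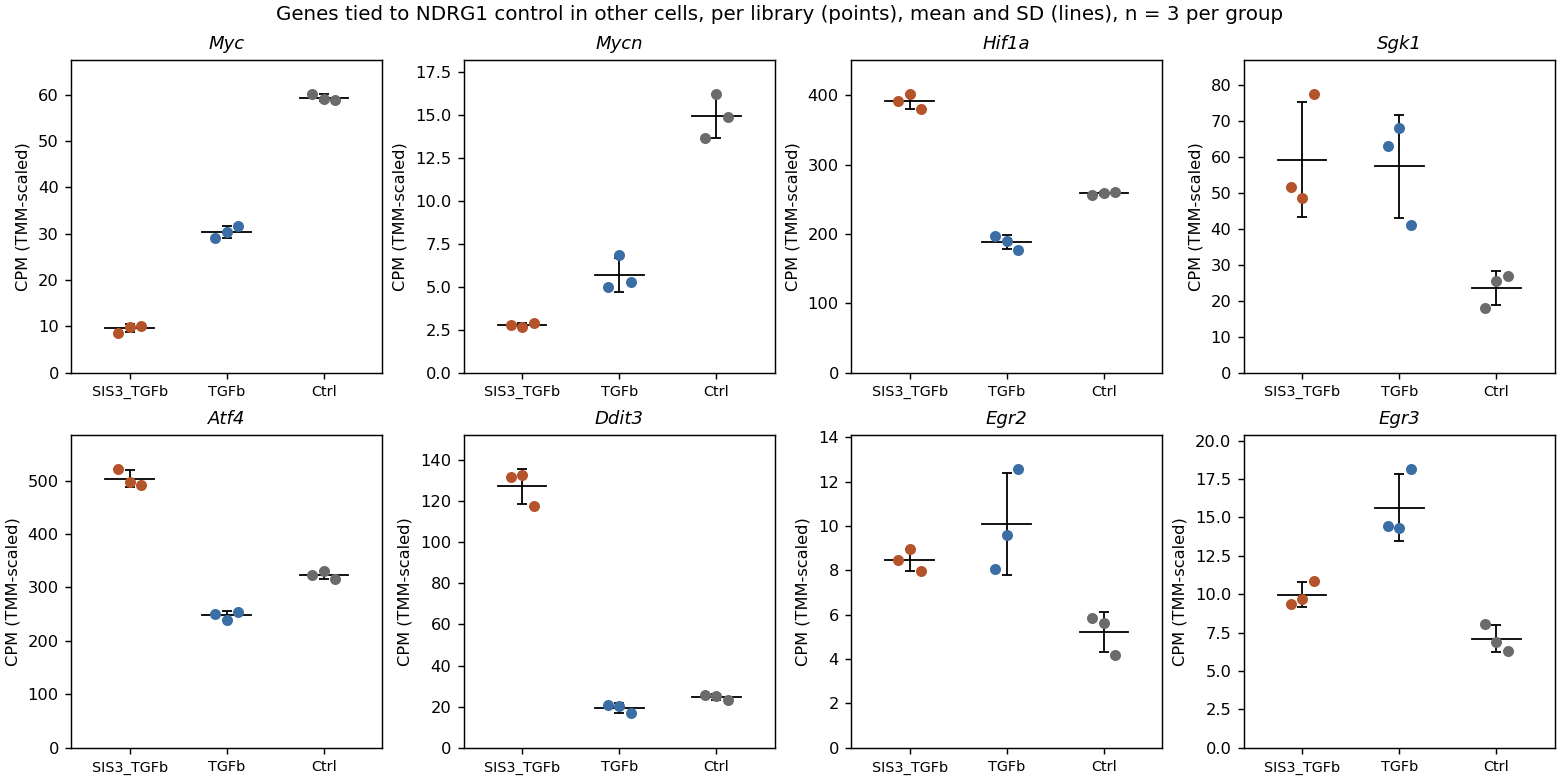
Level in CPM (vertical axis, from 0) of 8 genes tied to NDRG1 control in other cells, in every library (points) of SIS3_TGFb, TGFb and Ctrl, with group mean and SD, n = 3 each. Hif1a, Atf4 and Ddit3 are highest in SIS3_TGFb and lowest in TGFb, whereas Myc and Mycn are lowest in SIS3_TGFb and highest in Ctrl.

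Egr2, the factor induced with NDRG1 in anergic T cells, averaged 8.45 ± 0.498 CPM in SIS3_TGFb, 10.1 ± 2.30 CPM in TGFb and 5.22 ± 0.898 CPM in Ctrl (SD, n = 3 each). Its relative Egr3 averaged 9.96 ± 0.794 CPM in SIS3_TGFb, 15.6 ± 2.20 CPM in TGFb and 7.10 ± 0.89 CPM in Ctrl. Both rose in TGFb versus Ctrl, where Ndrg1 was lower, with log2 fold changes of 0.94 for Egr2 (SE 0.165, edgeR adjusted p = 0.000302) and 1.14 for Egr3 (SE 0.123, edgeR adjusted p = 2.04e-06). In SIS3_TGFb versus TGFb, where Ndrg1 was higher, Egr3 fell (-0.65, SE 0.116, edgeR adjusted p = 0.000372) and Egr2 did not pass the threshold (-0.25, SE 0.154, edgeR adjusted p = 0.214). Of 14 tested T cell anergy genes, 7 rose and 4 fell in TGFb versus Ctrl (median log2 fold change 0.27), 4 rose and 5 fell in SIS3_TGFb versus TGFb (-0.04), and 8 rose and 5 fell in SIS3_TGFb versus Ctrl (0.26). Nt5e, which encodes the ectonucleotidase CD73, rose in TGFb versus Ctrl (2.50, SE 0.136, edgeR adjusted p = 6e-10) and in SIS3_TGFb versus TGFb (0.97, SE 0.0949, edgeR adjusted p = 1.05e-06).

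Of 14 tested iron handling genes, 2 rose and 6 fell in TGFb versus Ctrl (median log2 fold change -0.04), 0 rose and 10 fell in SIS3_TGFb versus TGFb (-0.21), and 1 rose and 9 fell in SIS3_TGFb versus Ctrl (-0.26). Over all genes, 17.9% rose and 16.4% fell in the first of these comparisons, 21.2% rose and 20.6% fell in the second, and 29% rose and 24.9% fell in the last. Without scaling factors between libraries the 10 became 5. Tfrc, the transferrin receptor gene, whose mRNA is known to be stabilised when iron is short, averaged 32.1 ± 3.72 CPM in SIS3_TGFb, 42.2 ± 2.84 CPM in TGFb and 67.2 ± 4.38 CPM in Ctrl. It fell in TGFb versus Ctrl (-0.67, SE 0.074, edgeR adjusted p = 2.54e-06) and in SIS3_TGFb versus Ctrl (-1.06, SE 0.0757, edgeR adjusted p = 8.88e-09). Slc40a1, the iron exporter ferroportin, fell in TGFb versus Ctrl (-2.04, SE 0.189, edgeR adjusted p = 3.57e-07).

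Of 12 tested partners of NDRG proteins and genes of endosomal recycling, 4 rose and 1 fell in TGFb versus Ctrl (median log2 fold change 0.06), 2 rose and 4 fell in SIS3_TGFb versus TGFb (-0.02), and 4 rose and 3 fell in SIS3_TGFb versus Ctrl (0.04). The 5 calls in TGFb versus Ctrl became 3 in 7 of 16 alternative settings. Cdh1, the E-cadherin gene, whose protein NDRG1 recycles in epithelial cells, rose in TGFb versus Ctrl (1.28, SE 0.0607, edgeR adjusted p = 1.12e-10). Ctnnb1, the gene of its partner beta-catenin, rose there too (0.54, SE 0.0349, edgeR adjusted p = 5.12e-09).

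ABHD genes encode enzymes of the same fold as the NDRG proteins. Of 18 tested, 4 rose and 1 fell in TGFb versus Ctrl (median log2 fold change -0.01), 5 rose and 4 fell in SIS3_TGFb versus TGFb (0.11), and 5 rose and 2 fell in SIS3_TGFb versus Ctrl (0.10). Abhd17c, a depalmitoylase gene, rose in TGFb versus Ctrl (0.51, SE 0.0551, edgeR adjusted p = 2.1e-06). Abhd15 rose in SIS3_TGFb versus Ctrl (1.71, SE 0.201, edgeR adjusted p = 2.91e-06).

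In bulk libraries a change in the number of cells of a type and a change in RNA per cell cannot be told apart. The cultures held transcripts of other marrow cells that can express NDRG genes. The summed level of 10 mast cell and basophil markers was 555.2 to 652.9 CPM in SIS3_TGFb, 575.5 to 642.0 CPM in TGFb and 613.5 to 637.6 CPM in Ctrl, mostly Kit, Mcpt8 and Cma1. Fcer1a, Gata2, Prss34, Ms4a2 and Hdc, named after their values were seen, were uneven between TGFb libraries, each lowest in TGFb replicate 3. In TGFb replicates 1, 2 and 3, Prss34 had 34.17, 21.05 and 3.462 CPM. Ms4a2 had 3.94, 2.379 and 0.5326 CPM in the same libraries, and Hdc 3.201, 1.83 and 0.466 CPM. Fcer1a, the IgE receptor alpha chain, had 1.71, 1.51 and 0.987 CPM in SIS3_TGFb, against 2.89, 1.65 and 0 CPM in TGFb, and 1.83, 2.16 and 2.86 CPM in Ctrl. Gata2, a factor of mast cells and basophils, had 4.90, 4.82 and 3.60 CPM in SIS3_TGFb, against 7.57, 5.25 and 0.466 CPM in TGFb, and 4.86, 4.31 and 8.03 CPM in Ctrl. The most abundant members, Kit, Mcpt8 and Cma1, did not share that pattern. In TGFb replicate 3, Kit had 229.1 CPM, Mcpt8 232.8 CPM and Cma1 109.6 CPM, beside 242.7, 213.3 and 112.7 CPM in TGFb replicate 1.

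Summed macrophage and monocyte markers (10 genes) were 749 to 1266 CPM in SIS3_TGFb, 663 to 1037 CPM in TGFb and 920.2 to 1234 CPM in Ctrl, and dendritic cell markers (8 genes) were 500.7 to 873.6 CPM in SIS3_TGFb, 445.3 to 706.2 CPM in TGFb and 555 to 780.5 CPM in Ctrl. The groups overlapped in both lists. Libraries within a group differed, and Lyz2, named after its values were seen, had 562.7, 521.4 and 882.3 CPM in SIS3_TGFb. It had 594.5, 732.9 and 452.1 CPM in TGFb, and 656.5, 793.4 and 892.2 CPM in Ctrl. Sgk1 had the same order of libraries within each group. Ndrg2 had it in SIS3_TGFb and Ctrl but not in TGFb. With 3 libraries a group, such orders are weak evidence, and a link was not tested. Neutrophil markers (7 genes) were 220.0 to 233.3 CPM in SIS3_TGFb, 234.0 to 247.7 CPM in TGFb and 257.8 to 297.7 CPM in Ctrl, nearly all of it Ctsg (214.8 to 291.2 CPM over all libraries), while S100a8 was at 0.639 CPM or less. T cell markers (7 genes) were 1290 to 1371 CPM in SIS3_TGFb, 1536 to 1681 CPM in TGFb and 1430 to 1560 CPM in Ctrl, nearly all of it Thy1 (1277 to 1674 CPM over all libraries), which NK cells also express. The T cell receptor genes Cd3d and Cd3e were at 2.77 CPM or less in every library. Erythroid and megakaryocyte markers (8 genes) were 29.8 to 33.1 CPM in SIS3_TGFb, 7.66 to 38.7 CPM in TGFb and 37.3 to 47.9 CPM in Ctrl, and B cell markers stayed at 1.72 CPM or less. Of the stromal, endothelial and glial list, Pecam1 made up nearly all of the summed level, which was 1041 to 1139 CPM in SIS3_TGFb, 1313 to 1378 CPM in TGFb and 1080 to 1113 CPM in Ctrl. Beyond those values, the part of these cells in the changes of the NDRG genes was not tested.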

How the data were processed

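Poly-A RNA of 9 libraries was sequenced as 100 bp pairs. The authors deposited expected counts, which are estimated reads of each gene before any depth scaling; 10.2% to 11.1% of values per library are not whole. Per the submitters' processing notes, the tools were RSEM, Bowtie2, HISAT2, Cufflinks, StringTie and DESeq2, on GRCm38 (mm10); their versions, roles and gene annotation are not stated there. Reads that could belong to several genes are shared out by estimation, which could affect overlapping genes.

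Expected counts were rounded, filtered with filterByExpr (minimum count 10, minimum total 15), scaled by TMM and fitted over all libraries with 1 mean per group (edgeR 4.0.16, R 4.3.3), with two-sided p-values adjusted over 12212 genes. No replicate block was used. The SE is the log2 change divided by the root of its F statistic. Log2 profiles used a prior count of 2. The step was also run on simulated counts, in which far fewer genes changed than were called here, and its outcome is not reported here. Alternatives were other scalings, no filter, DESeq2 1.42.0, pairwise fits, a replicate block and leaving out each library.

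Members, lists and tests were chosen with earlier results of these data known. Named genes are the members, the 5 nearest per member, up to 3 called genes per list and comparison by p and 1 called the other way, and 8 regulators. Some genes that the naming rule selects are not reported here. Gene models are from GENCODE M21, promoters from RefSeq GRCm38.p6.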

Additional observations from a re-analysis of the deposited data

How the results depend on the processing

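In all 48 alternatives, counts of genes called stayed within 1.5 times of 4190 in TGFb versus Ctrl, 5104 in SIS3_TGFb versus TGFb and 6585 in SIS3_TGFb versus Ctrl. No result changed direction. Without Ctrl replicate 2, Ndrg4 moved from 4.37 to 4.90 in TGFb versus Ctrl and from 4.51 to 5.05 in SIS3_TGFb versus Ctrl. For members, 184 of 192 alternatives kept the direction and, for Ndrg2 and Ndrg3, the outcome of the test. The exceptions were in Ndrg2 in TGFb versus Ctrl and Ndrg3 in SIS3_TGFb versus Ctrl. Ndrg2 lost its call at -0.568 with DESeq2. Over all fits leaving out 1 library, Ndrg2 ran from -0.679 to -0.422. It lost its call without TGFb replicate 1, 2 or 3 and without Ctrl replicate 2 or 3. At -0.679, without Ctrl replicate 1, it kept the call. Ndrg3 lost its call at -0.086 without scaling factors. Leaving out 1 library, Ndrg3 ran from -0.164 to -0.129. Of these fits, only that without Ctrl replicate 3, at -0.129, lost the call. The cause was not tested. In TGFb versus Ctrl, Cd82 lost its call in 4 alternatives and Abhd2 in 3. The share of called genes that were higher was 41.3% with upper-quartile factors in TGFb versus Ctrl (52.2% with TMM), and without scaling factors 71.1% in SIS3_TGFb versus TGFb (50.6% with TMM) and 63.8% in SIS3_TGFb versus Ctrl (53.8% with TMM). Deviations of same-numbered libraries correlated at -0.147 to 0.126 over all genes. Counting error in genes of low counts enters these values, so they cannot show whether replicate numbers pair the libraries. A replicate block gave 3942, 4803 and 6346 calls, and adjusted p-values (edgeR) of 0.0401 for Ndrg2 and 0.0145 for Ndrg3 in TGFb versus Ctrl. Depth limited Ndrg2 in all groups and Ndrg4 in Ctrl, where 35 expected counts stood behind the mean.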
